A study of Saccharomyces cerevisiae with 32 samples.

Results

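The ribosome biogenesis factors of budding yeast were taken as the genes whose standard symbol begins with UTP, NOP, RRP, NOC, RPF or NSA directly followed by a digit. The rule looks only at symbols and found 60 of the 6328 genes of the table, namely 18 UTP, 17 NOP, 18 RRP, 3 NOC, 2 RPF and 2 NSA genes. The study measured RNA in *Saccharomyces cerevisiae* strains that differ in their use of xylose, a sugar of plant biomass. Y128 was evolved without oxygen on xylose from Y127, which had itself been evolved with oxygen on xylose from Y22-3, a stress-tolerant parent. All of these strains carry a bacterial xylose isomerase (*xylA*), a xylulose kinase (*XYL3*) and a transaldolase, Y127 has null alleles of *ISU1* and *HOG1*, and Y128 has in addition null alleles of *GRE3* and *IRA2*. Each strain is 1 evolved or engineered line, so a strain difference is a difference between lines.

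The cultures were in rich medium with 2% sugar. Each strain was sampled in anaerobic xylose, aerobic xylose, anaerobic glucose and aerobic glucose, with 2 libraries in each of these 12 groups, and Y128 and Y22-3 were sampled in anaerobic and aerobic sorbitol and in anaerobic and aerobic galactose, with 1 library each. The sample descriptions say that Y127 and Y22-3 did not grow in anaerobic xylose and that no strain grew in sorbitol, although the growth stage field of every sample reads exponential. The descriptions were followed, which gives 8 libraries of cultures that did not grow and 24 of cultures that grew. Cultures without growth were set up at an OD600 of about 0.5 from saturated overnight cultures and held for as long as a growing counterpart took, whereas growing cultures had divided a few times before they were sampled. Lack of growth and the earlier history of the cells thus cannot be told apart, and in bulk RNA neither can fewer cells that express a gene and less RNA per cell.

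Ribosomes are built in the nucleolus. RNA polymerase I makes a long precursor rRNA, small nucleolar RNPs (snoRNPs) and the small-subunit processome assemble on it during transcription, the precursor is cut, and each subunit then matures on its way to the cytoplasm. The work takes a large share of the resources of a dividing cell, and in yeast the genes for these factors are known as a co-regulated group that follows nutrient signals through TOR and protein kinase A.

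Of the 60 genes, 6 encode subunits of UTPA, 4 of UTPB and 2 of UTPC, the building blocks of the small-subunit processome. A further 17 encode other small-subunit factors, 4 core proteins of snoRNPs, 20 large-subunit factors and 7 subunits or cofactors of the exosome, the complex that trims the ends of rRNA precursors and degrades other RNAs. All 60 symbols matched a gene of the reference annotation. All 60 also passed the filter for testing, a mean of at least 1 RPKM (read count scaled to gene length and library size) over the 24 duplicated libraries, which 5801 genes passed.

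Library totals, recovered from the low values of the table, were 7.53 to 24.1 M (mega) reads in the duplicated libraries and 9.37 to 22.5 M in the others. With these totals, the 60 genes together held 0.0271 to 0.838% of the reads of a library. The member with fewest reads had at least 3 reads in every duplicated library, and only *RRP36* had no read in any library, in anaerobic sorbitol of Y22-3. The 2 libraries of aerobic xylose in Y22-3 stood apart from each other, with 7.53 and 20.9 M reads, a median of the 60 genes of 3.99 and 3.19 log2 RPKM, and a median of 9.91 and 9.02 over the genes of cytosolic ribosomal proteins. Counts in the comparisons of oxygen and the medians in the comparison of sugars that use them are also given without each. The table names both Y127 glucose columns of a condition with the same replicate letter, so these libraries are called column 1 and column 2 here. The values are scaled to library totals. The median of all genes tested was 3.32 log2 RPKM in anaerobic xylose of Y22-3 (mean of 2 libraries) and between 4.05 and 4.56 in the other duplicated groups, so changes of members are also given relative to the change of all genes. Groups were compared with limma on the deposited log2 values, with p-values adjusted over the 5801 genes by the Benjamini-Hochberg method, and a gene is called higher or lower when its adjusted p is under 0.05. SE is the standard error of a change in that fit. The duplicates came from different days, and p-values rest on 2 cultures a group and on a variance shared between genes.

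Among the 12 duplicated groups, the 60 genes were lowest in anaerobic xylose of Y22-3 and highest in aerobic glucose of Y128. In anaerobic xylose, their median level was 4.10 ± 0.05 log2 RPKM in Y128, 3.01 ± 0.01 in Y127 and 0.82 ± 0.17 in Y22-3 (SD of the medians of the libraries, n = 2). In aerobic xylose the medians were 4.63 ± 0.10, 4.39 ± 0.28 and 3.59 ± 0.56 in the same order of strains, in anaerobic glucose 3.87 ± 0.22, 3.39 ± 0.24 and 3.84 ± 0.17, and in aerobic glucose 5.70 ± 0.02, 5.19 ± 0.07 and 5.10 ± 0.02. Relative to all genes tested, the median member lay at -2.50 in anaerobic xylose of Y22-3 and at 1.61 in aerobic glucose of Y128. Over these 12 groups, 59 of the 60 genes had their lowest mean in anaerobic xylose of Y22-3, the exception being *RRP8*, and 59 had their highest in aerobic glucose of Y128, the exception being *NOP6*. These counts were not made for all genes. The median of all genes tested was also lowest in that xylose group, at 3.32, while in aerobic glucose of Y128 it was 4.09 and not the highest. The single library of anaerobic sorbitol of Y22-3 had a lower median of the 60 genes, 0.62. The median of all genes tested was also lower there, at 2.06 against 3.32 in anaerobic xylose of Y22-3. Relative to it the median member lay at -1.44 in sorbitol, above the -2.50 in xylose. Some neighbours in this order could not be separated by their spread. The medians of Y128 and Y22-3 in anaerobic glucose differed by less than either SD, and aerobic xylose of Y22-3 differed from each anaerobic glucose group by less than its own SD.

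**Figure D1:**
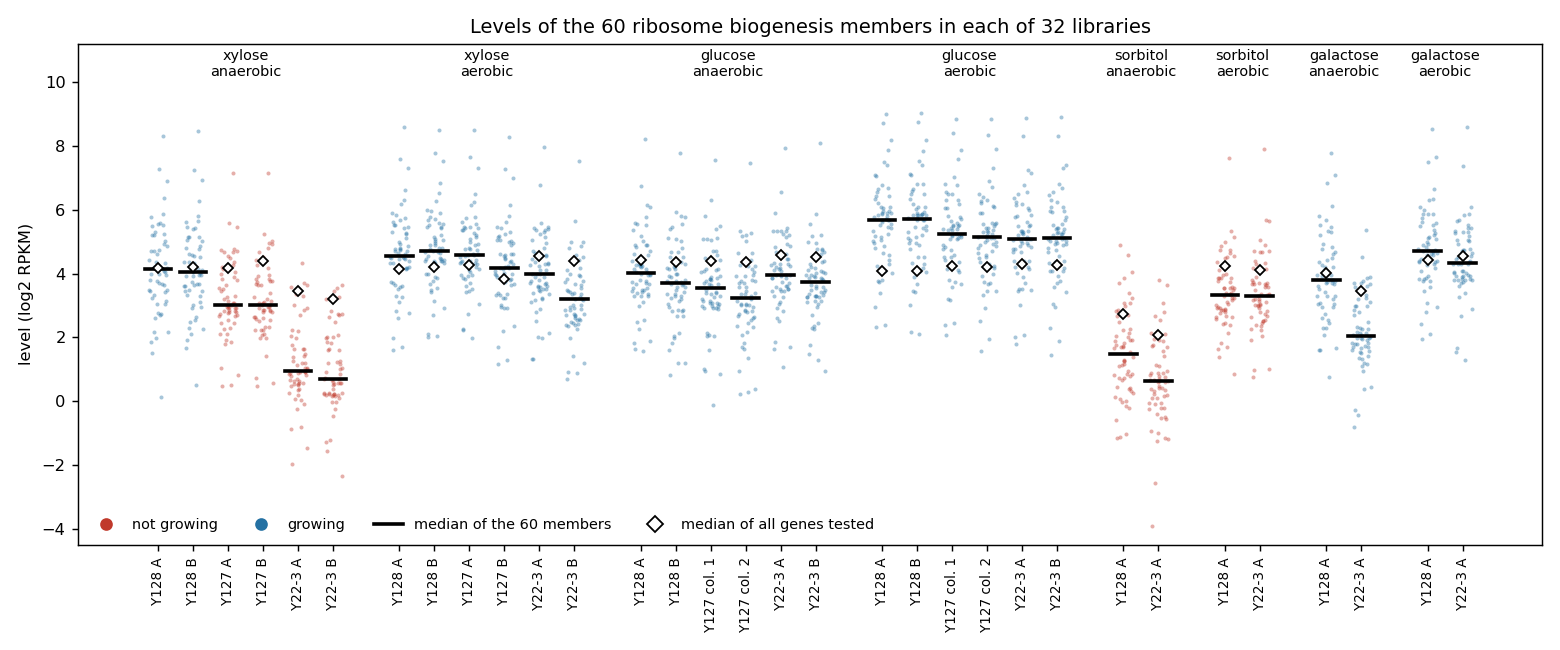
Level of each of the 60 genes (points, log2 RPKM) in each of the 32 libraries, with the median of the 60 (bar) and of all genes tested (diamond). Red libraries are of cultures that did not grow. In the anaerobic xylose libraries of Y22-3 the bars lie at 0.94 and 0.70, far below the diamonds, and in those of Y128 at 4.14 and 4.07.

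Within any library the genes covered a wide range of levels. *NOP10*, which encodes the smallest core protein of the H/ACA snoRNPs, had the highest mean over the 24 duplicated libraries, 7.88 log2 RPKM, followed by *NOP56* (6.77), *NOP1* (6.19) and *NOP58* (5.76), the core proteins of the C/D snoRNPs. The lowest means were those of *RRP36* (1.20) and *RRP14* (1.23), which encode a small-subunit and a large-subunit factor. Across the 24 libraries the level of a member and the mean of the other 59 correlated with r from 0.76 (*RRP8*) to 0.996 (*UTP9*) and a median of 0.98, and 53 of the 60 were above 0.9. These points share library totals and conditions, so this is a description only. With each library centred on its median gene the range was 0.61 to 0.99 and the median 0.98. The least alike were *RRP8*, *NOP16*, *RRP14* and *RRP40* with r of 0.76, 0.83, 0.84 and 0.86, and the most alike *UTP9*, *UTP13* and *RRP9*, at 0.996, 0.994 and 0.994.

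The first question was what happened on xylose when oxygen was removed, where Y128 grew and Y127 and Y22-3 did not. In Y22-3, 59 of the 60 genes were lower without oxygen (limma, Benjamini-Hochberg adjusted p under 0.05), against 63.7% of all genes tested. The median change was -2.68 in log2 units, with quartiles of -3.03 and -2.26. All genes tested had a median of -1.28, and 56 of the 60 members fell by more than that. With each library centred on its median gene, 54 members were lower, against 45.0% of all genes, and 4 were higher. Without replicate A of aerobic xylose the median of the members was -2.19 and 56 were lower, and without replicate B it was -3.11 and 59 were lower. The genes of cytosolic ribosomal proteins moved with them, with a median of -3.82 and 122 of 123 lower.

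All parts of the small-subunit pathway fell in Y22-3 on xylose. The 6 UTPA genes changed by -3.47 to -2.58, the 4 UTPB genes by -3.39 to -2.56, and both UTPC genes, *UTP22* and *RRP7*, by -3.005 and -2.38. *UTP10*, a large scaffold protein of UTPA, had 2.04 and 2.00 log2 RPKM in the anaerobic libraries, against 5.07 and 4.12 in the aerobic ones. The anaerobic values lay together and well under both aerobic ones, and the change was -2.58 (SE 0.23 and Benjamini-Hochberg adjusted p = 1.81e-09 in limma). *UTP8*, another UTPA subunit that is also known to act in tRNA export, had the largest change of its complex, -3.47, and *UTP13*, a WD-repeat protein, the largest of UTPB, -3.39, where *UTP21* had the smallest, -2.56. Among the other small-subunit factors, all 17 were lower. *RRP3*, which encodes a DEAD-box RNA helicase, had -1.46 and -2.36 log2 RPKM without oxygen, against 2.14 and 1.20 with oxygen. It changed by -3.58 (SE 0.35 and limma adjusted p = 9.32e-09). The value of -2.36 rests on about 4 reads, so the size of this fall is uncertain. At the other end of that list was *UTP23*, with -1.76.

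The snoRNP proteins differed among themselves. *NOP10* fell furthest of all 60 genes. It had 4.35 and 3.56 log2 RPKM without oxygen, against 7.97 and 7.52 with oxygen, a change of -3.80, or 13.9-fold lower (SE 0.21 and Benjamini-Hochberg adjusted p = 2.18e-12 in limma). The C/D proteins fell less. *NOP1*, the rRNA methyltransferase known as fibrillarin in animals, had 3.64 in both anaerobic libraries, against 5.48 and 4.51 in the aerobic ones, and changed by -1.35, and *NOP58* changed by -1.86 and *NOP56* by -2.80. With centred libraries *NOP1* and *NOP58* were no longer called in Y22-3, at -0.20 and -0.71 (limma adjusted p = 0.606 and 0.0647).

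Of the 20 large-subunit factors, 19 were lower. The largest change was in *NOP12*, an RNA-binding protein, with 0.49 and 0.51 log2 RPKM without oxygen, against 4.56 and 3.67 with oxygen, and a change of -3.61 (SE 0.25 and Benjamini-Hochberg adjusted p = 4.37e-11 in limma). *NSA2* changed by -3.29, *RPF2*, which brings the smallest large-subunit rRNA into the particle, by -3.05, *NOP2*, an rRNA methyltransferase, by -2.81, and *NOP7*, a scaffold of early large-subunit particles, by -2.77. The 7 exosome genes were all lower, but with a smaller median, -1.78. The range ran from *RRP45*, a ring subunit, at -3.43 to *RRP43*, another ring subunit, at -0.51. *RRP6*, the nuclear exonuclease, changed by -1.43 and *RRP40*, a cap subunit, by -1.60.

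A small number of genes stood out by how little they changed in Y22-3. *RRP8*, which encodes a methyltransferase of large-subunit rRNA, had 1.99 and 1.83 log2 RPKM without oxygen, against 2.00 and 1.42 with oxygen. The libraries overlapped, and the change of 0.20 was within their spread (SE 0.23 and Benjamini-Hochberg adjusted p = 0.417 in limma). *RRP43* had 3.59 and 3.22, against 3.99 and 3.84, *NSA1*, a factor of early large-subunit particles, 3.37 and 2.84, against 3.99 and 3.37, and *NOP16*, another large-subunit factor, 1.64 and 1.62, against 2.52 and 1.97. In each of these cases the anaerobic values were the lower ones, by a margin that for *NSA1* was below the last digit given. The changes were -0.51 for *RRP43*, -0.58 for *NSA1* and -0.61 for *NOP16*, all called lower on the deposited values and all called higher with centred libraries, at 0.64, 0.57 and 0.54, as was *RRP8* at 1.35. Without replicate A of aerobic xylose none of these 3 falls was called (adjusted p from 0.0992 for *RRP43* to 0.325 for *NOP16* in limma). *RRP8* was at 0.49 without that replicate and at -0.09 without replicate B.

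In Y127 on xylose, 51 of the 60 genes were lower without oxygen, against 23.5% of all genes tested, and the other 9 were not called. The median change was -1.30, while that of all genes was 0.13, and the changes of all 60 lay under 0.13, the highest being -0.01. *RRP1*, *NOP15* and *NOP13*, large-subunit factors, changed most. *RRP1* had 2.79 and 2.11 log2 RPKM without oxygen, against 5.09 and 4.59 with oxygen (change of -2.39, SE 0.33 and Benjamini-Hochberg adjusted p = 4.22e-06 in limma). *NOP15* changed by -2.33 and *NOP13* by -2.25. All 4 snoRNP proteins fell, and here the C/D proteins were ahead of *NOP10*, with -2.16 for *NOP58*, -2.04 for *NOP56* and -1.91 for *NOP1*, against -1.24 for *NOP10*. At the other end were exosome genes, of which 4 of 7 were lower. *RRP46*, a ring subunit, had 3.51 and 3.63 without oxygen, against 3.84 and 3.32 with oxygen, and *RRP6* had 4.76 and 4.97, against 5.2 and 4.62. The libraries of both genes overlapped, and the changes of -0.01 (SE 0.19) and -0.05 (SE 0.18) were within the spread. *NOP19*, a small-subunit factor, was also not called, at -0.15 (SE 0.30). *RRP46* and *RRP6* were above 0 without replicate A of aerobic or of anaerobic xylose, and *NOP19* without the first of these.

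In Y128, which grew on xylose without oxygen, fewer genes were called. Of the 60 genes, 25 were lower, against 26.3% of all genes tested, and 35 were not called. The median change was -0.53 and that of all genes -0.11. A fit of the 4 libraries of this comparison alone called 49 lower, against 40.0% of all genes, and 1 higher, and leaving out any 1 of these libraries called 10 to 14 lower (10 without replicate B of aerobic xylose, 12 without either anaerobic replicate, 14 without replicate A of aerobic xylose). The changes of 57 of the 60 genes lay under the median change of all genes. *RRP14* changed most, with 0.13 and 0.52 log2 RPKM without oxygen, against 1.69 and 2.05 with oxygen (change of -1.55, SE 0.39 and Benjamini-Hochberg adjusted p = 0.00279 in limma). *RRP15* changed by -1.23, *NOP53*, which links the large subunit to the exosome, by -1.21 and *UTP30* by -1.12. *RRP40* had 5.88 and 5.81 without oxygen, against 5.42 and 5.58 with oxygen, so it lay above in both libraries, but the change of 0.35 was not called (SE 0.17 and limma adjusted p = 0.106). It was called higher with centred libraries, at 0.34. *NOP10*, with the largest fall in Y22-3, had a change of -0.15, and *UTP22* one of -0.06. Among the snoRNP proteins, limma called 0 of 4 lower and 0 of 4 had an unadjusted p under 0.05. Over the 3 strains, 21 of the 60 genes were lower in each, against 10.9% of all genes tested, among them *RRP5*, *RRP9*, *NOP7*, *RPF2* and *NSA2*. This count can be no larger than that of Y128, which leaving out 1 library brought to 10 to 14.

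**Figure D2:**
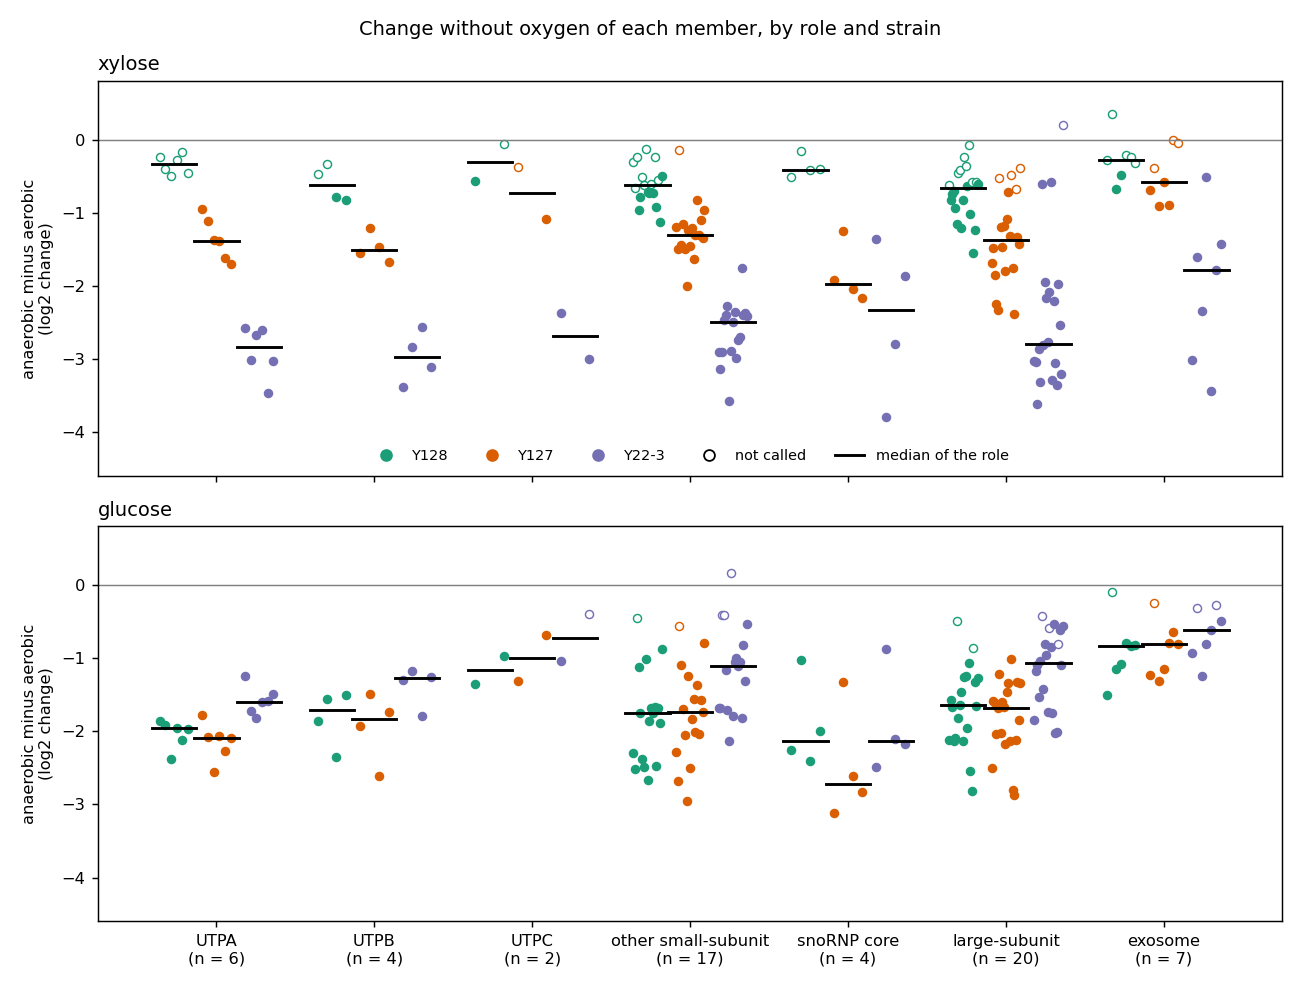
Change without oxygen (anaerobic minus aerobic, log2 scale) of each gene on xylose (top) and glucose (bottom), by role, with Y128, Y127 and Y22-3 from left to right in each role, open points for genes not called and a bar at the median of the role. On xylose the bars of the exosome lie at -0.28, -0.57 and -1.78 and those of UTPA at -0.33, -1.38 and -2.84.

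An interaction term then asked if strains differed in their response to oxygen on xylose. Between Y128 and Y22-3, 54 of the 60 genes had a higher change in Y128, against 59.3% of all genes tested, with a median difference of 2.14 beside 1.25 for all genes. With centred libraries 39 genes had a higher change, against 40.1% of all genes, and 4 a lower one, against 2202 of the 5801 genes. These 4 were *RRP8* (-1.97), *NOP16* (-1.71), *RRP43* (-1.14) and *NSA1* (-0.95). With quantile normalization 23 genes had a higher change and 8 a lower one, against 37.1% and 35.1% of all genes. The median difference was then 0.56, and *RRP8* was at -2.64. Without replicates A and B of aerobic xylose in Y22-3 the counts of higher changes were 51 and 55. *NOP10* differed most, by 3.64 (SE 0.30 and Benjamini-Hochberg adjusted p = 1.55e-09 in limma). *RRP8* went the other way, with a change in Y128 lower by 0.81 than in Y22-3 (SE 0.32 and limma adjusted p = 0.0273), against 19.1% of all genes called in that direction. That call was lost in 5 of 15 other settings, namely without replicate B of aerobic or replicate A of anaerobic xylose in either strain (limma adjusted p from 0.0708 to 0.162) and in a fit of the compared libraries alone (limma adjusted p = 0.0521). Between Y128 and Y127, 20 genes had a higher change in Y128, against 13.1% of all genes, with a median difference of 0.74 beside -0.20 for all genes. With centred libraries it was 44 genes, against 25.6%. The count of 20 was 8 without replicate B of anaerobic xylose in Y127, 9 and 11 without replicate A of aerobic and of anaerobic xylose in Y128, 10 without replicate A of aerobic xylose in Y127 and 12 without replicate B of anaerobic xylose in Y128. *RRP1* and *NOP58* were among the 20, at 1.80 and 1.76.

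Between Y127 and Y22-3, whose cultures both did not grow, 48 genes had a higher change in Y127, against 65.3% of all genes tested. The median difference was 1.34 for the 60 genes and 1.35 for all genes. With centred libraries 6 genes had a higher change in Y127 and 8 a lower one, against 32.1% and 34.5% of all genes, and with quantile normalization 2 and 25, against 29.7% and 30.0%, so the direction of this difference depends on the scaling. Without replicates A and B of aerobic xylose in Y22-3 the counts of higher changes were 34 and 54. *NOP19* was the highest of the 60 at 2.76 (SE 0.43 and Benjamini-Hochberg adjusted p = 9.84e-06 in limma), while *NOP58* was at -0.30 (SE 0.49 and limma adjusted p = 0.595).

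The same libraries were then compared between strains in anaerobic xylose alone. These comparisons share their anaerobic libraries with those above. In Y128, 59 of the 60 genes were higher than in Y22-3, against 58.2% of all genes tested, with a median difference of 3.25 beside 1.04 for all genes. *NOP10* had 8.32 and 8.46 log2 RPKM in Y128, against 4.35 and 3.56 in Y22-3, a difference of 4.44, or 21.7-fold (SE 0.21 and Benjamini-Hochberg adjusted p = 1.66e-13 in limma). *UTP8* differed by 4.24 and *UTP13* by 4.17. *RRP8* had 1.99 and 2.10 in Y128, against 1.99 and 1.83 in Y22-3, with overlapping libraries and a difference of 0.13 (SE 0.23). *RRP43* and *NOP16* were called higher, at 0.55 and 0.61, but lay at -0.32 and -0.26 with centred libraries, as *RRP8* lay at -0.74.

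In Y128, which grew, 46 of the 60 genes were higher than in Y127, which did not, against 25.9% of all genes tested. The median difference was 0.99 beside -0.08 for all genes. The C/D snoRNP proteins led. *NOP58* had 6.37 and 6.28 log2 RPKM in Y128, against 4.37 and 3.96 in Y127 (difference of 2.16, SE 0.35 and Benjamini-Hochberg adjusted p = 2.77e-05 in limma). *NOP56* differed by 1.85 and *RRP1* by 1.82. The 3 lowest were *RRP14* at -0.64, *NOP16* at -0.425 and *RRP46* at -0.16, none of them called (SE 0.39, 0.26 and 0.19). Of the 7 exosome genes 3 were higher, and of the 17 other small-subunit factors 14.

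In Y127, 58 of the 60 genes were higher than in Y22-3, against 61.2% of all genes tested, with a median difference of 2.18 beside 1.12 for all genes. With centred libraries 52 were higher, against 43.6% of all genes, with a median of 1.21, and with quantile normalization 35, against 38.8%, with a median of 0.64. *NSA2* had 3.97 and 3.82 log2 RPKM in Y127, against 0.47 and 0.90 in Y22-3 (difference of 3.21, SE 0.25 and Benjamini-Hochberg adjusted p = 4.08e-10 in limma). *NOP10* differed by 3.20 and *RRP45* by 2.86. *RRP43* and *RRP8* were not called, at 0.16 and 0.17, and *NSA1* was called at 0.54, but with centred libraries all 3 were lower in Y127, at -0.81, -0.80 and -0.44. Over the 3 strains, both steps of the order Y128, Y127, Y22-3 from high to low were called in 46 of the 60 genes, against 22.2% of all genes tested. The means of 54 genes were in that order, a count not made for all genes. The 6 genes out of this order were *NOP16*, *NOP19*, *RRP14*, *RRP46*, *RRP6* and *RRP8*.

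**Figure D3:**
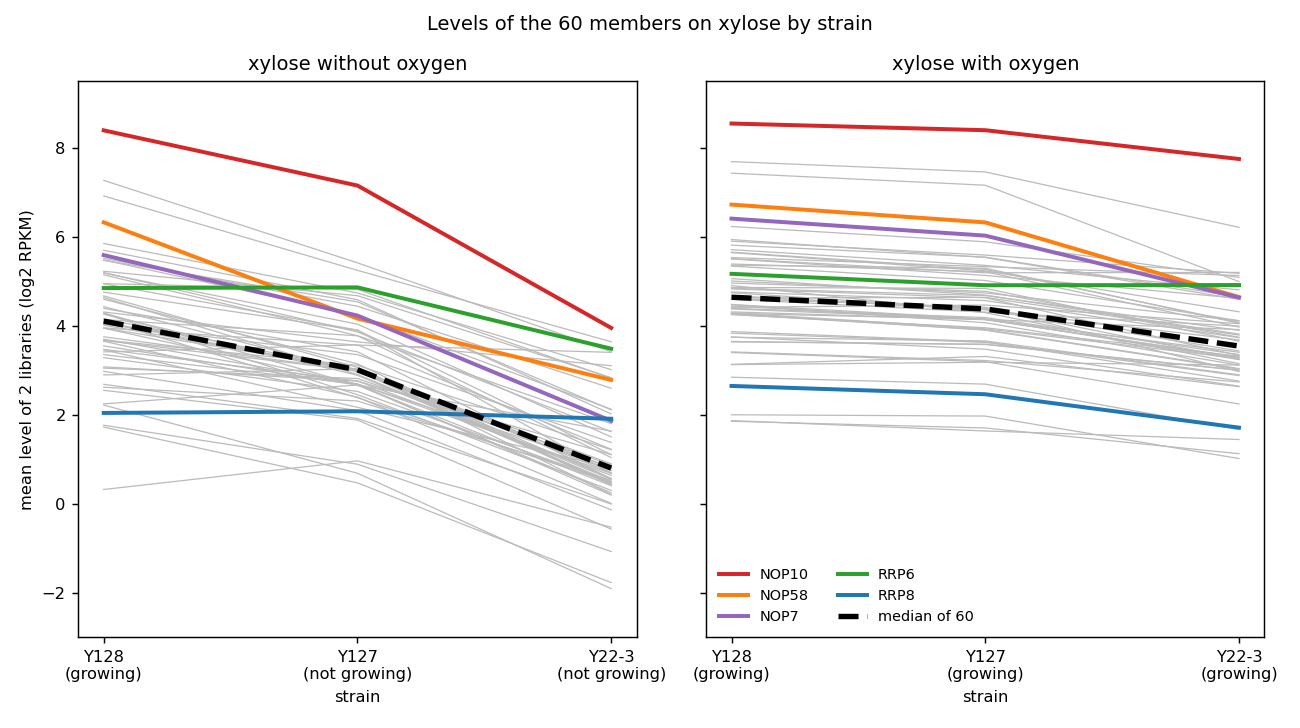
Mean level of 2 libraries (log2 RPKM) of each of the 60 genes on xylose without oxygen (left) and with oxygen (right) in Y128, Y127 and Y22-3, with 5 genes in colour and the median as a dashed line. Without oxygen *NOP10* runs from 8.39 in Y128 to 3.95 in Y22-3, while *RRP8* stays between 1.91 and 2.08.

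On glucose all strains grew with and without oxygen, and the genes fell there too. Without oxygen, 56 of the 60 were lower in Y128, against 28.8% of all genes tested, 58 in Y127, against 32.9%, and 51 in Y22-3, against 27.6%. The median changes were -1.68, -1.72 and -1.13 in the same order, while those of all genes were 0.18, 0.02 and 0.15. In 51 genes the fall was called in each strain, against 23.0% of all genes tested. The C/D snoRNP proteins were among the most changed. *NOP1* had 6.09 and 5.78 log2 RPKM without oxygen in Y128, against 8.20 and 8.18 with oxygen. In Y127 it had 5.50 and 4.06, against 7.89 and 7.90, and in Y22-3 5.22 and 4.39, against 7.16 and 7.41. The anaerobic values of *NOP1* were thus lower in every strain, and those of Y127 lay far apart. Its changes were -2.26, -3.12 and -2.48 (SE 0.35 each and Benjamini-Hochberg adjusted p = 9.48e-06, 1.69e-07 and 4.10e-06 in limma). *NOP10*, by contrast, changed by -1.02, -1.32 and -0.87.

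The exosome members again changed least by their median, -0.83 in Y128, -0.81 in Y127 and -0.62 in Y22-3. The 6 exosome genes outside the symbol rule fell further, with medians of -1.06, -1.37 and -0.72 in the same order. The small change is thus that of the members and not of the exosome as a whole. *RRP40* was not called on glucose in any strain, at -0.10, -0.24 and -0.31 (SE 0.17 each). The 9 genes whose fall was not called in each strain included *RRP46*, *NOP16*, *NOP19*, *RRP14* and *UTP22* beside *RRP40*. *RRP36* in Y22-3 was the only member with a positive change on glucose, 0.16 (SE 0.38), and its libraries overlapped. *RRP8*, not called in Y22-3 on xylose, fell on glucose in every strain, by 1.27 in Y128, 1.34 in Y127 and 0.56 in Y22-3, for example with 2.51 and 2.36 log2 RPKM in anaerobic, against 3.01 and 2.96 in aerobic glucose of Y22-3.

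**Figure D4:**
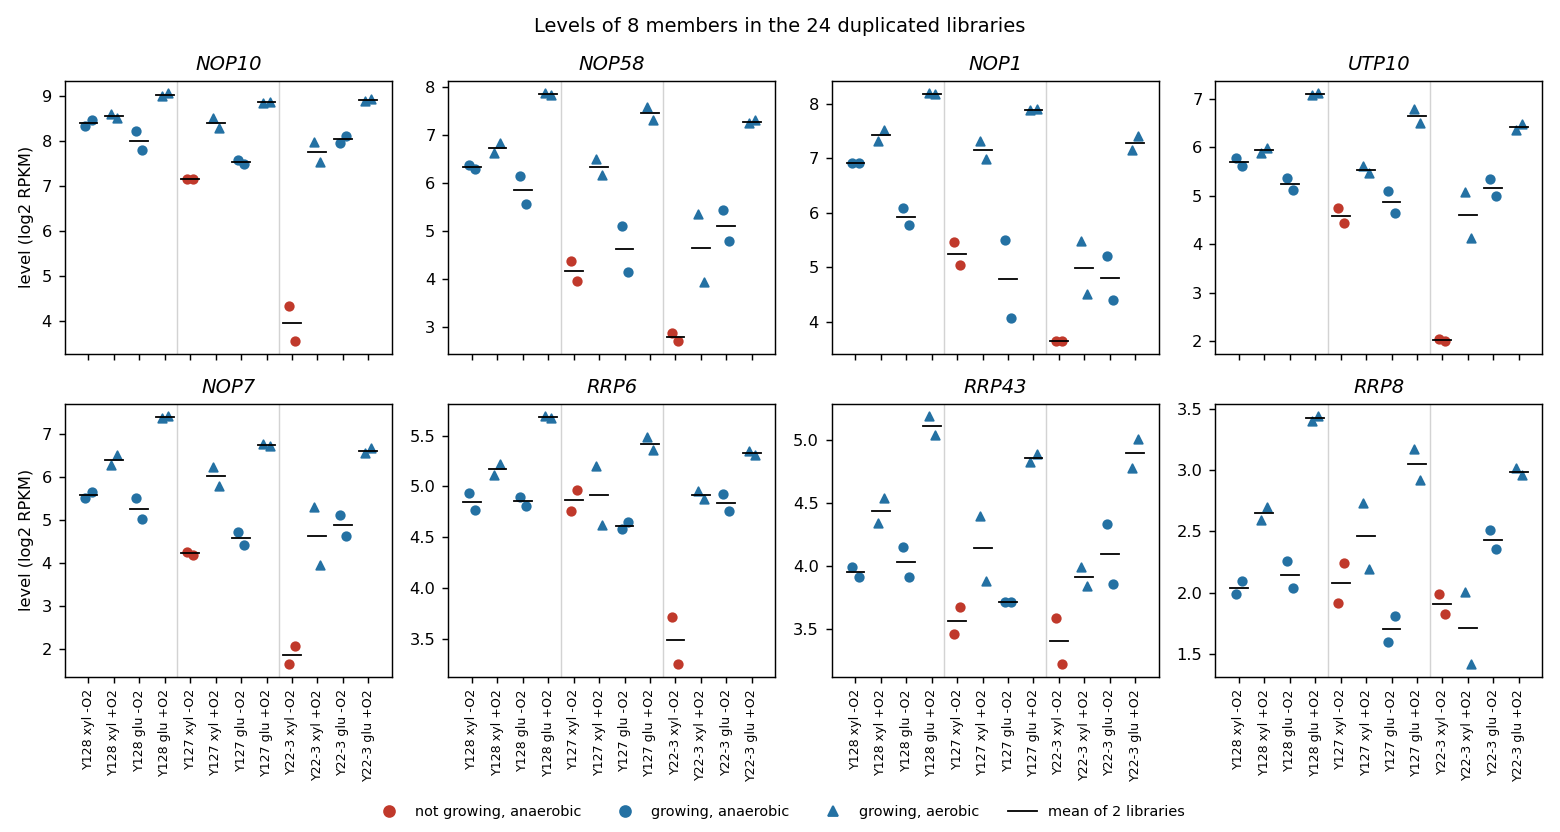
Levels (log2 RPKM, each panel with its own axis) of 8 genes in the 24 duplicated libraries, with a bar at the mean of 2 libraries and cultures without growth in red. *NOP10*, *UTP10* and *NOP7* have their lowest points in anaerobic xylose of Y22-3 (3.56, 2.00 and 1.65), whereas the points of *RRP8* there (1.99 and 1.83) overlap those of other groups.

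Sugars were compared within each strain. Without oxygen, Y22-3 did not grow on xylose and grew on glucose, and all 60 genes were lower on xylose, against 64.7% of all genes tested, with a median of -2.89 beside -1.39 for all genes. *NOP10* again changed most, by -4.08, with 4.35 and 3.56 log2 RPKM on xylose, against 7.95 and 8.11 on glucose. Y127 also did not grow on xylose and grew on glucose, but there few genes were called. In Y127, 12 genes were lower on xylose and 1 was higher, against 28.4% and 21.8% of all genes tested, and 47 were not called. The median was -0.14 beside -0.10 for all genes, and the standard errors of single genes ran from 0.16 to 0.39, so small differences could not be detected. *UTP22* had 4.20 and 4.28 on xylose, against 5.81 and 5.34 on glucose (difference of -1.34, SE 0.19 and Benjamini-Hochberg adjusted p = 8.76e-06 in limma). *RRP7*, which acts in the same complex, was the 1 gene higher on xylose, with 4.72 and 4.92, against 4.43 and 4.23. *NOP7* had 4.27 and 4.19 on xylose, under the values of 4.72 and 4.43 on glucose, and its difference of -0.35 was not called (SE 0.29). The count of 12 was 5 without column 1 of anaerobic glucose in Y127 and 7 without replicate B of anaerobic xylose.

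Y128 grew on both sugars without oxygen. There 4 genes were higher on xylose and 3 lower, against 12.3% and 26.5% of all genes tested, and the median was 0.33 beside -0.18 for all genes. With centred libraries 24 were higher, against 26.6% of all genes, and 2 lower. The 4 higher genes were *RRP1*, *NOP1*, *NOP56* and *RRP5*. *RRP1* had 4.23 and 4.32 log2 RPKM on xylose, against 3.496 and 2.68 on glucose (difference of 1.19, SE 0.33 and Benjamini-Hochberg adjusted p = 0.0077 in limma). The 3 lower ones were *RRP14*, *NOP16* and *UTP7*, at -1.065, -0.86 and -0.52. Without replicate B of glucose limma called 0 of the 60 genes higher, and 1 without either replicate of xylose, beside 9 at an unadjusted p under 0.05 with all libraries.

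With oxygen all cultures on these sugars were counted as growing, although the paper describes Y22-3 as unable to metabolize xylose. Levels there were lower on xylose than on glucose in every strain. In Y128, 44 of the 60 genes were lower, against 18.6% of all genes tested, with a median of -0.95. In Y127 it was 35 genes, against 25.8%, with a median of -0.72, and in Y22-3 56 genes, against 22.1%, with a median of -1.40. The Y127 count ran from 12 without replicate B of aerobic xylose and 14 without column 1 of glucose to 47 without replicate A of aerobic xylose. *NOP58* had 5.36 and 3.94 log2 RPKM on xylose in Y22-3, against 7.24 and 7.32 on glucose, and its difference of -2.64 was the largest of the 60 in that strain. The median in Y22-3 was -1.88 without replicate A of aerobic xylose and -1.01 without replicate B.

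Taking the 2 duplicated groups without growth against the 10 with growth, all 60 genes were lower, against 57.8% of all genes tested. The median was -2.40 beside -0.61 for all genes, and *RRP3* and *RRP8* were at the ends, at -3.01 and -0.47. Both groups without growth are anaerobic xylose, of Y127 and Y22-3, and only Y128 grew there. Growth is thus mixed with sugar and oxygen in this contrast, and within anaerobic xylose it cannot be told apart from strain. Over all 32 libraries the levels of growing and non-growing cultures overlapped. The median of the 60 genes in the libraries without growth had a lowest value of 0.62, a median of 2.24 and a highest value of 3.34 log2 RPKM, against 2.04, 4.17 and 5.71 in those with growth. Of the 24 libraries with growth, 3 lay under the highest one without growth. These were anaerobic galactose and replicate B of aerobic xylose in Y22-3 and a library of anaerobic glucose in Y127. Relative to the median gene it was 4 libraries. Aerobic xylose of Y22-3 is counted as growing here, although the paper describes that strain as unable to metabolize xylose.

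Sorbitol and galactose had 1 library a condition, so differences there carry no test, and a 2-fold difference is used only as a rule of size. In Y128 without oxygen, the 60 genes had a median of 1.47 log2 RPKM in sorbitol and 3.80 in galactose, and 56 genes were at least 2-fold lower in sorbitol, against 57.4% of all genes tested. With oxygen the medians were 3.34 and 4.72, and 40 genes were lower by that rule, against 29.6%. In Y22-3 without oxygen the medians were 0.62 and 2.04 with 52 genes, against 65.3%, and with oxygen 3.30 and 4.33 with 33 genes, against 41.0%. With centred libraries the 52 genes became 6, against 9.76% of all genes, and the 33 became 21, against 30.3%.

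The C/D proteins had the largest differences between aerobic sorbitol and galactose in Y128. *NOP58* had 3.38 log2 RPKM in sorbitol and 6.66 in galactose, *NOP1* 4.54 and 7.66, and *NOP56* 4.50 and 7.51. *RRP46* ran the other way in anaerobic Y128, with 3.71 in sorbitol and 2.96 in galactose, and in aerobic Y22-3 *RRP14* had 2.46 in sorbitol and 1.30 in galactose. *RRP6* was nearly level in aerobic Y128, with 5.33 in sorbitol and 5.37 in galactose.

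The removal of oxygen could be followed in these sugars too. In galactose, where both strains grew, 22 genes of Y128 were at least 2-fold lower without oxygen, against 23.1% of all genes tested, and 59 genes of Y22-3, against 58.2%. In sorbitol it was 51 genes of Y128, against 60.6%, and 60 of Y22-3, against 72.2%. With centred libraries the counts in galactose were 2 in Y128, against 10.3% of all genes, and 37 in Y22-3, against 21.9%. In sorbitol they were 15 in Y128, against 20.4%, and 16 in Y22-3, against 17.5%. In Y22-3 the median level in galactose was 2.04 without and 4.33 with oxygen, with library totals of 9.45 and 9.37 M reads. *NOP10* of Y22-3 had 5.37 without and 8.60 with oxygen in galactose and 3.08 without and 7.92 with oxygen in sorbitol, and in Y128 7.78 and 8.54 in galactose and 4.58 and 7.63 in sorbitol. *RRP8* was at -1.25 without and 3.29 with oxygen in sorbitol of Y22-3.

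Other genes of the pathway were taken from lists of factors without these symbol stems, 130 genes in all. Without oxygen on xylose, 35 of them were lower and 7 higher in Y128, where 26.3% of all genes tested were lower. In Y127 it was 97 lower and 9 higher, with 23.5% of all genes lower, and in Y22-3 118 lower and 6 higher, with 63.7%. Of all 5801 genes tested, 1217 were higher in Y128, 1949 in Y127 and 1198 in Y22-3. Among the higher pathway genes, 5, 8 and 5 were regulators, in the same order of strains. The 11 genes of RNA polymerase I and its initiation factors had medians of -0.30, -1.26 and -2.46 in these strains, with 1, 9 and 10 lower. On glucose 9 of the 11 were lower in each strain, against 28.8% of all genes tested in Y128, 32.9% in Y127 and 27.6% in Y22-3. The 40 tested small-subunit factors had medians of -0.47, -1.12 and -2.52 with 8, 33 and 38 lower, and the 47 large-subunit factors -0.56, -1.30 and -2.62 with 21, 43 and 46 lower. The 6 exosome genes of these lists had medians of -0.55, -1.01 and -2.58 with 4, 4 and 5 lower. Only 1 of these 6 was higher in Y22-3, *LRP1*, a partner of the nuclear exosome. It was higher by 1.70 there and lower by 0.74 in Y128 and 1.21 in Y127.

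The list of regulators holds activators and repressors, and its members moved in different directions. *DOT6*, a repressor that binds promoters of ribosome biogenesis genes, was higher without oxygen on xylose by 0.91 in Y128, 1.73 in Y127 and 3.53 in Y22-3. Its paralog *TOD6* was lower by 0.92 in Y127 and 1.25 in Y22-3, and not called in Y128, at -0.33. *STB3*, another repressor of this group, was higher in Y127 and Y22-3, by 0.81 and 0.77. *SFP1*, an activator, was higher by 0.39 in Y128 and 0.69 in Y127 and lower by 0.37 in Y22-3. The falls of *TOD6* and *SFP1* in Y22-3 were smaller than that of the median gene, -1.28. *IFH1*, an activator of ribosomal protein genes, was lower in Y22-3, at -1.76, and not called in Y128 and Y127, at 0.48 and 0.21. *CRF1*, a corepressor of those genes, was higher by 4.25 in Y128 and 3.63 in Y127 and lower by 4.09 in Y22-3. With oxygen, its difference between xylose and glucose was already 5.61 in Y22-3, against 0.88 in Y127. On glucose without oxygen it changed by 5.63 in Y128, 7.02 in Y127 and 6.59 in Y22-3. These are RNA levels, and the activity of these factors is known to depend on phosphorylation and location, which were not used here.

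Neighbours on the chromosome were looked up in the reference annotation of strain S288C. Of pairs of adjacent genes, 1 held 2 members, *RRP15* and *NOC4*, which lie on opposite strands. On xylose without oxygen they changed by -1.23 and -0.31 in Y128, -1.33 and -1.20 in Y127, and -2.53 and -2.90 in Y22-3. A further 7 pairs set a member beside another gene of the pathway lists, such as *NSA2* beside *LCP5* and *RRP3* beside *SSF1*.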

How the data were processed

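RNA was depleted of rRNA, made into stranded libraries and sequenced as single reads. The authors trimmed reads with Trimmomatic 0.3.0, aligned them with Bowtie2 2.2.2 to a Y22-3 genome, counted them with HTSeq 0.6.0 and deposited log2 RPKM values in 1 table of 6328 genes and 32 libraries. The strand setting of the counting is not given in the sources used here, so a gene and an antisense neighbour may share reads. From these log2 values, genes with a mean of at least 1 RPKM in the 24 duplicated libraries were fitted with limma 3.58.1 (R 4.3.3), as 1 model of 12 groups with a variance trend and 12 residual degrees of freedom. All contrasts used this fit. The 8 galactose and sorbitol libraries had no replicates and no test. Library totals were recovered from the steps of the low values, on the assumption that 1 read had been added to each count, each total set from 29 to 50 genes.

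The members and gene lists were chosen with earlier results of these data known. Genes named are fixed members of each role, the ends of each role in Y22-3 on xylose, the 3 highest and 3 lowest in each comparison of oxygen on xylose and of strains in anaerobic xylose, and the ends of the levels. Others named, in the comparisons of sugars, in glucose, galactose and sorbitol, and among the other pathway genes, were picked after their values were seen. Alternatives were centring, quantile normalization, log2(RPKM + 1), other filters, a fit of the compared libraries alone, no variance trend, a replicate block and leaving out each library. Python 3.11.15, numpy 2.4.6, pandas 2.3.3 and matplotlib 3.10.9 were used for tables and plots. Sequences and coordinates of the Y22-3 build were not used here.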

Additional observations from a re-analysis of the deposited data

Results flagged for a closer look

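The change without oxygen on xylose differed between strains by the interaction test of limma with Benjamini-Hochberg adjustment. A higher change was called in 54 of the 60 genes in Y128 against Y22-3, beside 59.3% of all genes tested, in 20 in Y128 against Y127, beside 13.1%, and in 48 in Y127 against Y22-3, beside 65.3%. The median difference in Y127 against Y22-3 was 1.34 for the 60 genes and 1.35 for all genes, and the 48 higher changes became 6 higher and 8 lower with centred libraries and 2 higher and 25 lower with quantile normalization. *RRP8* went the other way in Y128 against Y22-3, at -1.97 with centred libraries and -2.64 with quantile normalization. On the deposited values it was called lower at -0.81, where 19.1% of all genes were called lower. It lay between -1.10 and -0.51 when libraries were left out, and that call was lost without 4 of the 8 libraries, each left out in turn, and in a fit of the compared libraries alone. The causes were not tested.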

How the results depend on the processing

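Most counts of called genes stayed within 1.5 times their value under the alternatives, in 216 cases and not in 35, and these follow. With centred libraries, 24 genes were higher on xylose than on glucose in anaerobic Y128, and the interactions gave 44 genes (Y128 against Y127) and 6 genes (Y127 against Y22-3, median -0.0585). With quantile normalization, 35 genes were higher in Y127 than in Y22-3 in anaerobic xylose, 34 in the same sugar comparison of Y128, and the interactions gave 23 genes (Y128 against Y22-3), 49 (Y128 against Y127) and 2 (Y127 against Y22-3, median -0.75). A fit of the compared libraries alone gave 49 lower genes in Y128 on xylose and 19 higher ones in its anaerobic sugar comparison, where no variance trend gave 2. Leaving out each library gave 10 to 14 lower genes in Y128 on xylose, 5 to 10 lower (median from -0.37 to 0.012) in Y127 on xylose against anaerobic glucose, 0 to 4 higher in the same comparison of Y128 (0 in limma without replicate B of glucose, with 9 at an unadjusted p under 0.05 when all libraries are used), 12 to 47 lower in aerobic Y127 on xylose against glucose, and 8 to 24 in the interaction of Y128 against Y127.

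Single genes changed sign as follows. On xylose without oxygen in Y22-3, *NOP16*, *NSA1* and *RRP43* were at 0.54, 0.57 and 0.64 with centred libraries and at 1.20, 0.70 and 0.63 with quantile normalization, *UTP23* was at 0.11 with quantile normalization, and *RRP8* lay between -0.0945 and 0.49 when libraries were left out. In Y128, *NOP10* and *UTP22* were at 0.36 and 0.11 with quantile normalization. In Y127, leaving out a library gave -0.41 to 0.12 for *NOP19*, -0.27 to 0.25 for *RRP46* and -0.34 to 0.24 for *RRP6*. In anaerobic xylose, Y128 minus Y22-3 was -0.26, -0.32 and -0.74 for *NOP16*, *RRP43* and *RRP8* with centred libraries and -0.92, -0.30 and -1.33 with quantile normalization. Y127 minus Y22-3 was -0.44, -0.81 and -0.80 for *NSA1*, *RRP43* and *RRP8* with centred libraries and -0.58, -0.84 and -1.67 with quantile normalization, and -0.0195 to 0.35 for *RRP43* when libraries were left out, the lowest without replicate B of anaerobic xylose in Y22-3. For single libraries at 2-fold, centring gave 21 genes (aerobic) and 6 (anaerobic, and 34 with log2(RPKM + 1)) in sorbitol of Y22-3, and, without oxygen, 37 in galactose and 16 in sorbitol of Y22-3 and 2 and 15 in Y128. Causes were not tested.

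The labels do not say if a replicate letter pairs samples across groups. Over 45 pairs of groups the deviations correlated from -0.11 to 0.33, with 7 pairs above 0.1. This does not settle if some groups were paired. With the letter as a block, 7 genes rather than 4 were higher in the anaerobic sugar comparison of Y128, and 59 were still lower in Y22-3 on xylose. A promoter motif search was planned and not run. Members at 3 reads or fewer, *RRP36* and *RRP17* in anaerobic Y22-3 or Y128 libraries, have the least certain levels. *RRP3* had about 4 reads in replicate B of anaerobic xylose of Y22-3.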
